A study of Mus musculus with 24 samples.

Results

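Transcripts of 5 C-type lectin receptors, Clec10a, Mgl2, Cd207, Ly75 and Mrc1, were followed through dendritic cells sorted from mouse spleen. The genes were chosen by name as galactose-type or endocytic lectins, with earlier results of these data known. They are 5 of the 39017 genes in the deposited count table. All 5 passed the filter on low counts, which left 18093 genes for testing. The libraries came from mice that carry the internal tandem duplication of Flt3 together with a wild-type allele (Flt3 ITD/+, called ITD here) and from Flt3 +/+ mice (called WT here). Flt3 is the receptor of a cytokine on which dendritic cells depend, and per the series title the mutation is activating and associated with leukemia. All mice were F1 animals of C57BL/6 and FVB/N. The comparison asks whether the allele alters the lectin repertoire of each dendritic cell subset.

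The labels name 5 sorted subsets. PDC had 2 ITD and 2 WT libraries, from batches A and B. Canonical CD8+ cells (C_CD8) and non-canonical CD8+ cells (NC_CD8) had 3 ITD and 3 WT libraries each, from batches B, C and D. Esam-hi CD11b+ cells (Esamhi) and Esam-lo CD11b+ cells (Esamlo) had 2 ITD and 2 WT libraries each, from batches C and D. Every batch held 1 ITD and 1 WT library of each of its subsets, which makes 12 ITD and WT pairs. The series' design text says that all replicates are of independent experiments. PDC and the CD11b+ subsets shared no batch, so that subset and batch cannot be told apart between them from their own libraries. A batch block joins them only through the CD8+ libraries of batches B, C and D, and assumes equal batch shifts in all subsets. The sources used here do not give the age of the mice, the number of animals per library or the antibodies of the sort.

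C-type lectin receptors bind sugars on microbes, dead cells and self glycoproteins, and many carry their cargo into endosomes for antigen presentation. The galactose-type receptors MGL1 (Clec10a) and MGL2 (Mgl2) bind terminal galactose and N-acetylgalactosamine, the sugar of the Tn antigen on mucins. Langerin (Cd207) binds mannose-type sugars and builds the Birbeck granules of skin Langerhans cells, and in mice it is also made by a part of the CD8+ dendritic cells of the spleen. DEC-205 (Ly75) and the macrophage mannose receptor (Mrc1) belong to one family of large receptors with many lectin domains. DEC-205 is a marker of splenic CD8+ dendritic cells and a route used to target antigen to them, and Mrc1 is best known on macrophages and sinus endothelium.

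Mgl2 (chr11:70130329-70137550) and Clec10a (chr11:70156197-70170834) are neighbours on the plus strand of chromosome 11 in GRCm38 (mm10), 18646 bases apart, with Asgr2, a subunit of the asialoglycoprotein receptor, on the other side of Mgl2. Their coding sequences of 1143 and 924 bases were identical at 823 of 910 aligned bases (90.4%). The windows printed first differ at 6 of 60 bases, in capitals, and show how reads of both genes can be told apart. Positions are chr11:70136251-70136310 in exon 7 of 9 of Mgl2 and chr11:70169736-70169795 in exon 6 of 10 of Clec10a.
Mgl2: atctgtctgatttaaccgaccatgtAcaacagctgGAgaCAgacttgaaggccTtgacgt
Clec10a: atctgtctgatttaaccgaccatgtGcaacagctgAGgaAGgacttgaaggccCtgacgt
A run of 183 coding bases was the same in both genes, and a read inside it fits either. It spans exons 7 to 9 of Mgl2 (from chr11:70136337 to 70136699) and exons 6 to 8 of Clec10a (from chr11:70169822 to 70170189), and lies in the part that encodes the lectin domain.
Shared run: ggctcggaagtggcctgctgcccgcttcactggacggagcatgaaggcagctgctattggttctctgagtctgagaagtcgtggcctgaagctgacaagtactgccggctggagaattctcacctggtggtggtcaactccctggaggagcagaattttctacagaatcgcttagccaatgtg
Of all 50-base words of the transcripts, 289 of 2205 (13.1%) in Mgl2 and 287 of 3181 (9.02%) in Clec10a occurred in another gene, 270 of them shared between this pair of genes. Their counts are therefore uncertain to the extent that the counting let such reads fall to the wrong gene.

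Cd207 (chr6:83671215-83677857, minus strand) lies beside Clec4f, the Kupffer cell receptor, which had no reads in any library. Ly75 (chr2:60292103-60383303, minus strand) lies between Cd302 and Pla2r1, and the antisense gene Gm13571 overlaps it. All 151 of the 6904 Ly75 words that were not unique (2.19%) occurred in Gm13571, whose group means were at most 6.80 CPM. The sources used here do not say whether the counting used strand, so reads of Ly75 and Gm13571 cannot be told apart with certainty. Mrc1 (chr2:14229392-14332057, plus strand) holds the microRNA gene Mir511, and like Cd207 it shared no 50-base word with another gene.

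The 250 bases before the RefSeq start (GRCm38.p6) are shown for the 4 genes with an entry, Cd207, Ly75, Mgl2 and Mrc1, to set their start regions side by side. Capitals mark matches to 7 motifs, searched on both strands: an ETS-IRF composite (GGAA and GAAA with 2 bases between them, found in 2.30% of 32851 promoters of the same length), a pair of IRF elements (GAAA and GAAA with 2 bases between them, 2.98%), a PU.1-type element (GAGGAA, 23.3%), AP-1 (TGANTCA, 6.75%), STAT (TTC and GAA with 3 bases between them, 7.02%), the E-box (CANNTG, 66.2%) and RUNX (TGTGGT, 14.05%).
Cd207, chr6:83677858-83678107, minus strand: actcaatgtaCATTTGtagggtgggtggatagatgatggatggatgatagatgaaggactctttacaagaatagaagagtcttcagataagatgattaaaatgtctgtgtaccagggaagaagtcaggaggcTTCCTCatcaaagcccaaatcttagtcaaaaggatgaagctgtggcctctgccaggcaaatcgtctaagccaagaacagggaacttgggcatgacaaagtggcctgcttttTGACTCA
Ly75, chr2:60383274-60383523, minus strand: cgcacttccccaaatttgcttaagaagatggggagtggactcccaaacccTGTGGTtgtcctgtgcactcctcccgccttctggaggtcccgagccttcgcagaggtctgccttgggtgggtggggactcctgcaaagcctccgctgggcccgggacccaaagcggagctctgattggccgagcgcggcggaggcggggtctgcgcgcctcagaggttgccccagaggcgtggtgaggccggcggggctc
Mgl2, chr11:70130107-70130356, plus strand: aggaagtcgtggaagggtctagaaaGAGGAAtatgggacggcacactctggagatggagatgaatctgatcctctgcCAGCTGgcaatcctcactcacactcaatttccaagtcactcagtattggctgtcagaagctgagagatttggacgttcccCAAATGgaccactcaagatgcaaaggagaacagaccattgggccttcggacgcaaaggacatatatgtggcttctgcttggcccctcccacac
Mrc1, chr2:14229164-14229413, plus strand: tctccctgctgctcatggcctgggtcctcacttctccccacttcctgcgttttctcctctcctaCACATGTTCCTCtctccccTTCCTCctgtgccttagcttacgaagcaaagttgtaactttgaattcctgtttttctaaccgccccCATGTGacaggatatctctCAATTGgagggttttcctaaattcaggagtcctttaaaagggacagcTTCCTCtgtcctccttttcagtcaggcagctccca
The Cd207 promoter held an AP-1 match that starts 7 bases before the start site and ends at it, a PU.1-type match at 118 bases and an E-box match at 240 bases. The Ly75 promoter held a RUNX match at 200 bases and no other. Mgl2 had a PU.1-type match at 225 bases and E-box matches at 173 and 93 bases. Mrc1 had PU.1-type matches at 180, 167 and 35 bases and E-box matches at 186, 101 and 82 bases, the first of which abuts a PU.1-type match. These letter matches are descriptions and not sites shown to be bound.

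Libraries held 11197145 to 22248404 counts. Levels are given as CPM, the count scaled to counts per M of the library (M for mega) with TMM-scaled library sizes, and as CPM per kb of exon where genes are compared with each other. The summed level of 8 pDC genes was 10875 to 11692 CPM in ITD PDC and 11194 to 12252 CPM in WT PDC, and that of 9 cDC1 genes was 4512 to 8455 CPM in ITD C_CD8 cells and 5200 to 9030 CPM in WT C_CD8 cells. The cDC1 list was not specific to these cells, since it also summed to 4405 to 7050 CPM in ITD PDC and 4396 to 6730 CPM in WT PDC. The 9 cDC2 genes summed to at least 2719 CPM in every CD11b+ library, to 1662 to 2269 CPM in NC_CD8 cells, to 1720 to 2049 CPM in PDC and to at most 305 CPM in C_CD8 libraries. The WT NC_CD8 library of batch C stood apart with the highest sum of 14 macrophage genes (1052 CPM) and of 4 erythroid genes (222 CPM). The WT NC_CD8 library of batch D had the second highest erythroid sum (121 CPM). The 5 NK cell genes summed to 4.56 to 12.1 CPM in ITD NC_CD8 cells, against 53.0 and 57.1 CPM in these WT libraries of batches C and D. The 6 T cell genes summed to 3.08 to 13.2 CPM in ITD, against 85.6 and 48.2 CPM in the same WT libraries. The WT NC_CD8 library of batch B did not stand apart, at 4.76 CPM for the NK cell genes and 2.74 CPM for the T cell genes. Flt3 itself ran from 249.8 to 750.5 CPM in ITD libraries and from 282 to 955 CPM in WT libraries, and was lower in ITD in 12 of 12 pairs, and the count of a gene does not show which allele was read. In sorted bulk samples, fewer cells that make a transcript and less transcript per cell cannot be told apart.

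**Figure D1:**
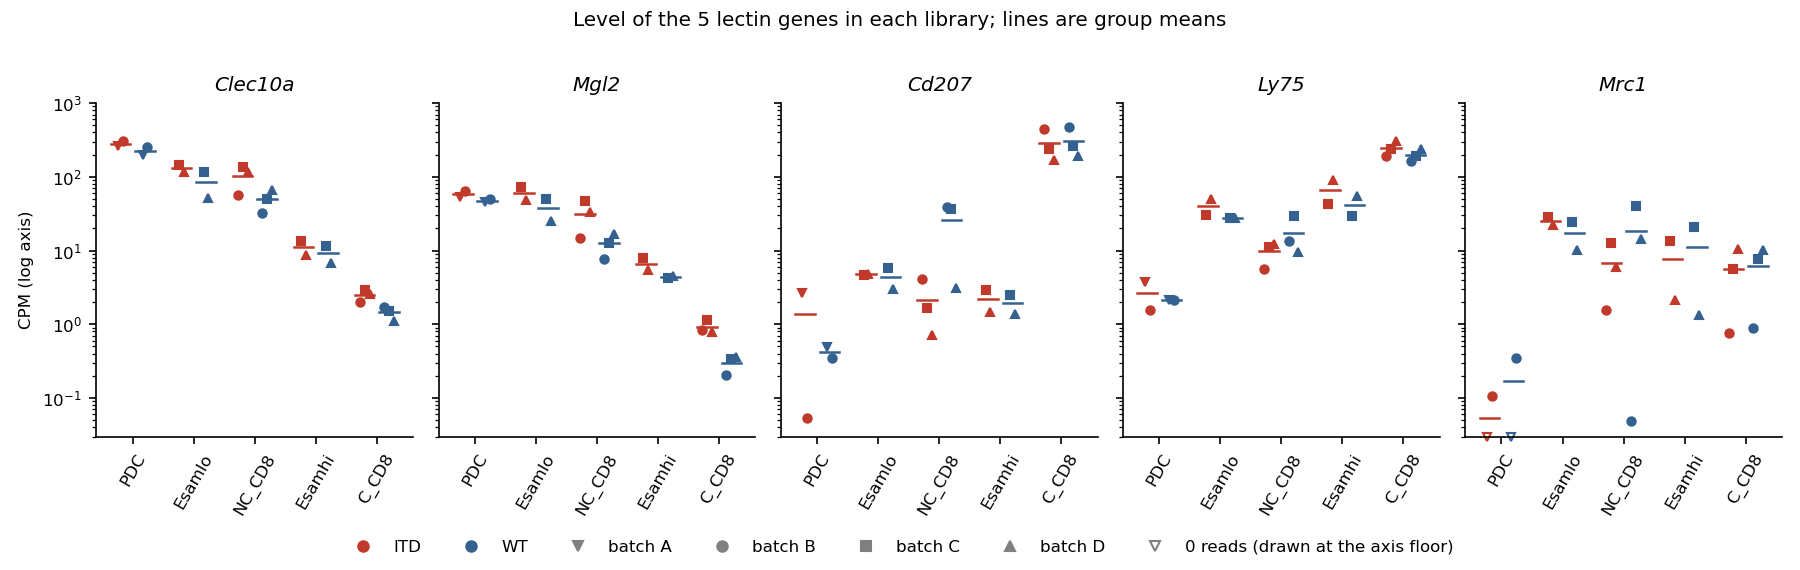
Level of each lectin in every library, in CPM on a log axis, by subset, with ITD left of WT, points for single libraries (marker shapes for batches) and lines at group means. Clec10a lies highest in PDC (259 and 304 CPM in ITD), Mgl2 in PDC and Esamlo cells, Cd207 and Ly75 in C_CD8 cells, and Mrc1 spreads over a wide range within most subsets.

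Each subset had its own mix of the 5 lectins. On the per-kb scale, Clec10a and Mgl2 made up 76.7% and 22.3% of the summed level in ITD PDC, and 76.7% and 22.7% in WT PDC. In Esamlo cells they made up 52.0% and 33.2% in ITD and 51.3% and 31.5% in WT. Cd207 took 83.3% in ITD and 87.1% in WT C_CD8 cells, with Ly75 at 15.7% and 12.2%. Ly75 held the highest share in Esamhi cells, 49.7% in ITD and 42.1% in WT. The mix differed most between genotypes in NC_CD8 cells, where Clec10a took 65.1%, Mgl2 27.8% and Cd207 2.58% in ITD, against 37.5%, 13.1% and 37.5% in WT. These are shares of group means over unlike libraries: in batches B, C and D the Cd207 share was 8.74%, 1.47% and 0.781% in ITD NC_CD8 cells, against 59.9%, 41.0% and 5.70% in WT NC_CD8 cells. The summed level of the 5 genes was 224 CPM per kb in ITD and 234 in WT C_CD8 cells, but 19.3 in ITD and 14.4 in WT Esamhi cells.

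**Figure D2:**
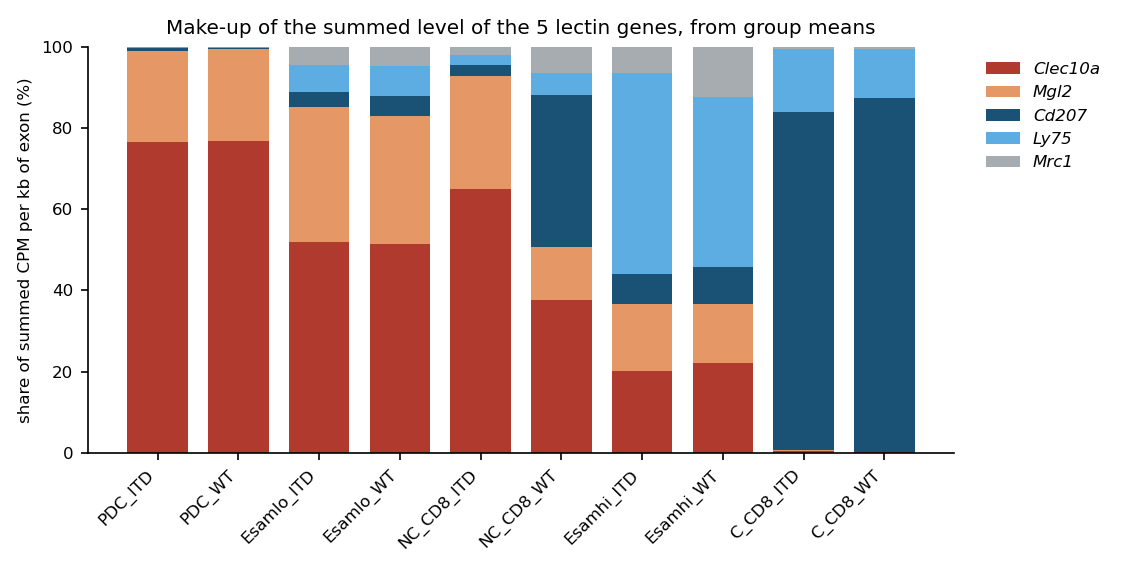
Share of each lectin in the summed CPM per kb of the 5 genes, as stacked percentages of group means, with the ITD bar left of the WT bar of each subset. Clec10a fills most of PDC, Cd207 most of C_CD8, and in NC_CD8 cells Cd207 takes 2.58% in ITD and 37.5% in WT (5.70% to 59.9% in single WT libraries).

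Between WT subsets, most of the lectins differed. A gene was called when its adjusted p, from edgeR's quasi-likelihood test with Benjamini-Hochberg adjustment over all 18093 genes, was under 0.05. Of the 5 lectins, 4 were called between NC_CD8 and C_CD8 cells, where 25% of all genes were called, 5 between NC_CD8 cells and PDC (26.4% of all genes), and 4 between C_CD8 cells and PDC (37.8%). For Esamlo cells, 4 were called against C_CD8 cells (16% of all genes), 4 against PDC (30.2%) and 1 against NC_CD8 cells (4.08%). For Esamhi cells, 4 were called against C_CD8 cells (23.5%), 4 against PDC (30.6%), 3 against NC_CD8 cells (6.34%) and 2 against Esamlo cells (0.658%). With a block on the experiment batch, the count became 4 between NC_CD8 cells and PDC (43.5% of all genes), as Mrc1 was no longer called, and 2 between Esamlo and NC_CD8 cells (15.1%). These comparisons share WT libraries and are not independent of each other.

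The galactose-type lectins were highest in PDC and Esamlo cells and all but missing from C_CD8 cells. Clec10a had 259 and 304 CPM in ITD PDC, against 197 and 250.2 CPM in WT PDC. Esamlo cells had 145 and 118 CPM in ITD, against 116 and 52.1 CPM in WT. NC_CD8 cells had 57.5, 135 and 117 CPM in ITD, against 32.8, 50.3 and 65.3 CPM in WT. In each of these 3 subsets the ITD mean was above the WT mean, but ITD and WT libraries overlapped in NC_CD8 cells. Esamhi cells were far lower, with 13.7 and 8.84 CPM in ITD and 11.6 and 6.84 CPM in WT. C_CD8 cells were lowest, with 1.98, 2.93 and 2.57 CPM in ITD and 1.72, 1.53 and 1.09 CPM in WT. No C_CD8 library of either genotype reached the level of any other subset.

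In WT mice Clec10a was 34.0-fold higher in NC_CD8 than in C_CD8 cells, and 6.35-fold higher in Esamhi than in C_CD8 cells (log2 2.67 ± 0.43 SE, edgeR adjusted p = 0.000181). Esamlo cells were below PDC (log2 -1.41 ± 0.41, edgeR adjusted p = 0.0138), a call that was lost without the WT Esamlo library of batch D (-0.95, adjusted p = 0.186) or the WT PDC library of batch B (-1.24, adjusted p = 0.0746). Without the WT Esamlo library of batch C it was -2.10 (adjusted p = 0.00481). Esamlo and NC_CD8 cells did not differ beyond their spread (0.77 ± 0.36, edgeR adjusted p = 0.300). Esamhi cells were below NC_CD8 cells (-2.42 ± 0.41, edgeR adjusted p = 0.00127). That last call ended without the WT Esamhi library of batch D (-2.09, adjusted p = 0.0533).

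Mgl2 followed the same order in WT cells, but with the Esamlo level close to that of PDC. ITD PDC had 54.1 and 64.2 CPM, and WT PDC had 46.0 and 49.5 CPM. ITD Esamlo cells had 73.2 and 48.1 CPM, and WT Esamlo cells had 49.4 and 25.2 CPM. The ranges of these groups overlapped, and the WT difference of Esamlo from PDC was not called (log2 -0.36 ± 0.42, edgeR adjusted p = 0.558). With the batch block it was -1.57 and called (edgeR adjusted p = 0.00148), although these subsets share no batch. NC_CD8 cells had 14.7, 47.4 and 33.3 CPM in ITD, against 7.75, 12.8 and 16.9 CPM in WT. Esamhi cells had 7.91 and 5.44 CPM in ITD, against 4.29 and 4.496 CPM in WT. C_CD8 cells held only 11, 22 and 13 reads in ITD (0.839, 1.15 and 0.776 CPM), against 4, 7 and 7 reads in WT (0.208, 0.335 and 0.364 CPM).

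In WT mice Mgl2 was 40.2-fold higher in NC_CD8 than in C_CD8 cells. Esamlo cells were 2.99-fold above NC_CD8 cells (log2 1.58 ± 0.38, edgeR adjusted p = 0.0240), but the call rested on single libraries: without the WT Esamlo library of batch C it was 1.01 (adjusted p = 0.268), and without the WT NC_CD8 library of batch B or of batch C it was 1.33 (adjusted p = 0.111) or 1.60 (adjusted p = 0.0542). Esamhi cells were below NC_CD8 cells (-1.50 ± 0.43, edgeR adjusted p = 0.0419), and this call too was lost without either WT Esamhi library (-1.46, adjusted p = 0.257 without batch C and -1.54, adjusted p = 0.244 without batch D) and without the WT NC_CD8 library of batch C (-1.48, adjusted p = 0.0803) or D (-1.23, adjusted p = 0.147). The size of the difference moved little.

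Within CD11b+ cells, both genes set Esamhi apart from Esamlo cells in every batch and genotype. The difference of Esamhi minus Esamlo, in log2 CPM within a batch, was -3.72 to -3.40 in ITD and -3.31 to -2.91 in WT for Clec10a, and -3.19 to -3.12 in ITD and -3.49 to -2.46 in WT for Mgl2. In the fit of all groups the WT difference was -3.18 ± 0.45 SE for Clec10a (edgeR adjusted p = 0.00292) and -3.08 ± 0.47 for Mgl2 (edgeR adjusted p = 0.00427). In a fit of these 2 WT groups alone it was not called, at -3.18 (adjusted p = 0.0889) and -3.09 (adjusted p = 0.0689). Leaving out the WT Esamhi library of batch D ended both calls at differences of -2.85 (adjusted p = 0.119) and -3.12 (adjusted p = 0.129). The Mgl2 call also ended without the WT Esamhi library of batch C (-3.03, adjusted p = 0.107) or the WT Esamlo library of batch C (-2.52, adjusted p = 0.0731), and without that Esamlo library Clec10a was at -2.49 and still called. Within CD8+ cells, NC_CD8 minus C_CD8 was 4.78 to 5.47 in ITD and 4.17 to 5.76 in WT for Clec10a, and 3.96 to 5.23 in ITD and 4.61 to 5.16 in WT for Mgl2, over batches B, C and D.

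The balance of both genes also depended on the subset. The ratio of Clec10a to Mgl2, per kb, was 3.42 to 3.47 in ITD PDC and 3.10 to 3.65 in WT PDC. It was 1.43 to 1.77 in ITD Esamlo cells and 1.49 to 1.70 in WT Esamlo cells, and 1.17 to 1.25 in ITD and 1.10 to 1.95 in WT Esamhi cells. No Esamlo or Esamhi library reached the PDC ratio. NC_CD8 cells lay between them, with 2.05 to 2.82 in ITD and 2.79 to 3.06 in WT, and in C_CD8 cells the ratio rested on few reads.

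Both galactose-type lectins were higher in ITD than in WT in all 12 pairs. The log2 difference within a pair, ITD minus WT, ran from 0.20 to 1.42 for Clec10a with a median of 0.60, and from 0.23 to 1.87 for Mgl2 with a median of 0.91. Averaged over the 5 subsets, the fitted log2 difference was 0.62 ± 0.18 SE for Clec10a (edgeR adjusted p = 0.178) and 0.91 ± 0.20 for Mgl2 (edgeR adjusted p = 0.0554), neither of which was called. The pairs come from shared batches. With the pair as a block both genes were called higher in ITD, at nearly the same sizes: 0.64 for Clec10a (edgeR adjusted p = 0.00333) and 0.90 for Mgl2 (edgeR adjusted p = 0.00173). DESeq2 also called both (adjusted p = 0.0423 and 0.00299). Mgl2 became called in the fit with no block when single libraries were left out, the ITD NC_CD8 library of batch B (0.98, adjusted p = 0.0119), the WT NC_CD8 library of batch D (0.97, adjusted p = 0.0413) or the WT Esamlo library of batch C (1.03, adjusted p = 0.0363).

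**Figure D3:**
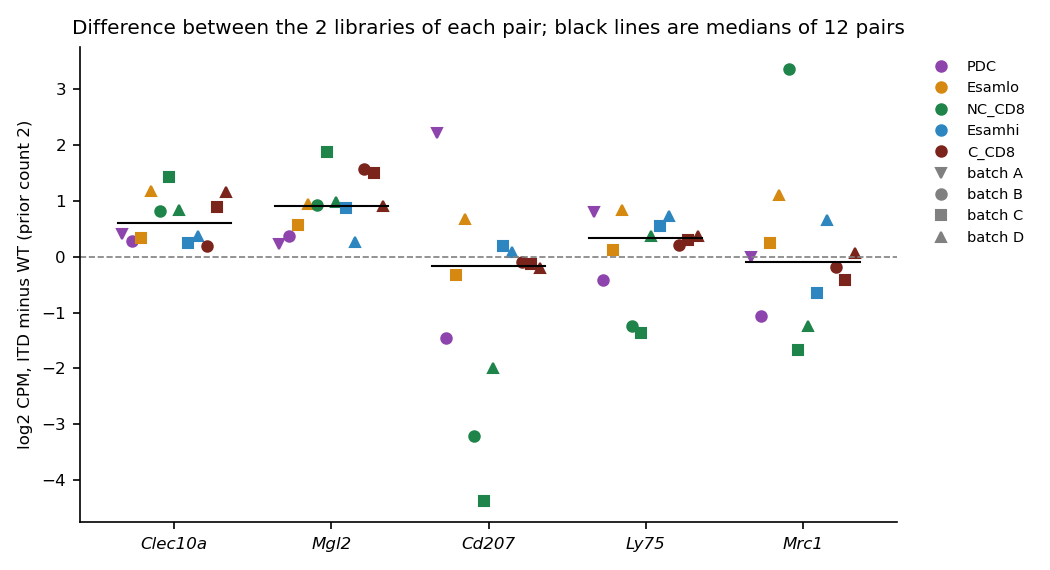
Log2 CPM of the ITD library minus that of the WT library of the same subset and batch, for each of the 12 pairs and each lectin, with colours for subsets, marker shapes for batches, black lines at the medians and a dashed line at 0 (no difference). All 12 points of Clec10a (0.20 to 1.42) and of Mgl2 (0.23 to 1.87) lie above 0, and the 3 NC_CD8 pairs of Cd207 lie at -3.21, -4.36 and -1.99.

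By fitted size, the genotype difference of Clec10a and Mgl2 was larger in both CD8+ subsets than in PDC or CD11b+ cells, but pairs overlapped. The Clec10a pairs of C_CD8 cells differed by log2 0.20, 0.89 and 1.15, on 21 to 56 reads per library. Those of Esamlo cells differed by 0.32 and 1.18. In NC_CD8 cells Clec10a averaged 103 ± 40.4 CPM in ITD and 49.5 ± 16.3 CPM in WT (SD, n = 3 each), a log2 difference of 1.06 ± 0.33 SE (edgeR adjusted p = 0.305, and 0.00376 with the pair block). Mgl2 averaged 31.8 ± 16.4 CPM in ITD and 12.5 ± 4.59 CPM in WT NC_CD8 cells (SD, n = 3 each), a log2 difference of 1.35 ± 0.35 SE (edgeR adjusted p = 0.153, and 0.00261 with the pair block). In the same libraries 8 monocyte genes summed to 2052 to 2153 CPM in ITD, against 1432 to 1748 CPM in WT, and the 9 cDC2 genes to 1850 to 2269 CPM in ITD, against 1662 to 2058 CPM in WT, both higher in ITD in all 3 pairs. Their part in the result was not tested. DESeq2 gave Mgl2 an adjusted p of 0.0406 in NC_CD8 cells, and without the ITD library of batch B the edgeR fit gave 1.68 (adjusted p = 0.0282). In C_CD8 cells Mgl2 differed by 1.60 ± 0.58 (edgeR adjusted p = 0.746, and 0.137 with the pair block) on few reads. In PDC the differences were 0.33 ± 0.40 for Clec10a and 0.31 ± 0.42 for Mgl2, and in Esamlo cells 0.65 ± 0.40 and 0.70 ± 0.42, with an edgeR adjusted p of 1 in each case. The test of a differing genotype effect among the 5 subsets gave an edgeR adjusted p of 1 for both genes and singled out no subset.

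Cd207 was a C_CD8 gene with a trace in all other subsets and a second, lower level in WT NC_CD8 cells. C_CD8 cells of batches B, C and D had 444, 242 and 167 CPM in ITD, against 473, 265 and 193 CPM in WT. In both genotypes the level was highest in batch B and lowest in batch D, and ITD was the lower of each pair by a small margin (log2 -0.13 ± 0.70 SE, edgeR adjusted p = 1). NC_CD8 cells had 4.07, 1.65 and 0.707 CPM in ITD (66, 29 and 12 reads), against 38.5, 36.1 and 3.15 CPM in WT (801, 734 and 47 reads). Each ITD library was below its WT partner, while the ITD library of batch B was above the WT library of batch D. Esamlo cells had 4.64 and 4.87 CPM in ITD and 5.83 and 3.01 CPM in WT. Esamhi cells had 2.88 and 1.48 CPM in ITD and 2.52 and 1.39 CPM in WT. PDC had 53 reads and 1 read in ITD (2.67 and 0.0535 CPM) and 11 and 7 reads in WT (0.489 and 0.344 CPM).

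In WT mice NC_CD8 cells were 11.9-fold below C_CD8 cells (log2 -3.57 ± 0.78 SE, edgeR adjusted p = 0.00234). The neighbours lower in the order were not told apart: Esamlo against NC_CD8 cells (-2.56 ± 0.92, edgeR adjusted p = 0.143), Esamhi against Esamlo cells (-1.17 ± 1.04, edgeR adjusted p = 0.811) and Esamhi cells against PDC (2.21 ± 1.33, edgeR adjusted p = 0.220). With the batch block, Esamlo cells were called below NC_CD8 cells (-1.97, edgeR adjusted p = 0.0218). Esamhi cells were then called above PDC (5.29, edgeR adjusted p = 0.00514), although these subsets share no batch. Their WT libraries held only 44 and 22 Cd207 reads in Esamhi cells and 11 and 7 in PDC. Without the WT NC_CD8 library of batch D the Esamlo difference was -3.08 (adjusted p = 0.0482). The call of Cd207 between Esamlo cells and PDC (3.38 ± 1.25, edgeR adjusted p = 0.0469) was lost without any of the 4 libraries, at differences of 2.82 to 3.78 (adjusted p = 0.0703 to 0.182). That between Esamhi and NC_CD8 cells (-3.72, edgeR adjusted p = 0.0311) was lost without 4 of the 5 libraries, at -4.20 to -3.33 (adjusted p = 0.0700 to 0.291).

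Cd207 had the largest fitted genotype difference of the 5 lectins. In NC_CD8 cells it averaged 2.14 ± 1.74 CPM in ITD and 25.9 ± 19.8 CPM in WT (SD, n = 3 each). The fitted level was 12.2-fold lower in ITD (log2 -3.61 ± 0.84 SE, edgeR adjusted p = 0.0883), and the pairs differed by -3.21, -4.36 and -1.99 in batches B, C and D. With the pair block the difference was -3.56 and Cd207 fell (edgeR adjusted p = 0.000420). DESeq2 also called it (adjusted p = 0.0105), as did edgeR with no filter on low counts (0.0230) and edgeR without the WT library of batch D (-4.13, adjusted p = 0.00982). Without the WT library of batch C, which stood apart by its macrophage and erythroid genes, the difference was -3.3 for Cd207 (edgeR adjusted p = 0.361), 1.07 for Clec10a and 1.38 for Mgl2, but -0.24 for Ly75 and -0.07 for Mrc1. For a genotype effect on Cd207 that differs among the 5 subsets, the edgeR adjusted p was 1, 0.0145 with the pair block and 0.664 with DESeq2. Outside the NC_CD8 cells no subset had a called difference, with log2 values of 1.70 ± 1.36 in PDC, 0.16 ± 1.10 in Esamhi and 0.11 ± 0.99 in Esamlo cells.

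Xcr1, the chemokine receptor that marks cDC1, was lower in ITD than in WT NC_CD8 cells in all 3 pairs, as Cd207 was. Xcr1 had 15.3, 8.23 and 6.95 CPM in ITD NC_CD8 cells, against 52.0, 148 and 22.1 CPM in WT NC_CD8 cells. As a percentage of the C_CD8 level of the same genotype and batch, Cd207 in NC_CD8 cells was at 0.917%, 0.681% and 0.423% in ITD, against 8.16%, 13.6% and 1.63% in WT. Xcr1 was at 2.66%, 0.707% and 0.656% in ITD, against 7.92%, 12.1% and 2.06% in WT. In WT the percentages of both genes were close to each other in every batch. The ratio of Cd207 to Xcr1 CPM was 0.773, 0.208 and 0.158 in ITD C_CD8 cells and 0.720, 0.217 and 0.180 in WT C_CD8 cells, over batches B, C and D. It was 0.266, 0.200 and 0.102 in ITD NC_CD8 cells and 0.742, 0.244 and 0.143 in WT NC_CD8 cells. By size, Clec9a and the cDC1 sum differed less than Cd207 or Xcr1 in NC_CD8 cells. Clec9a, a receptor for dead cells, had 22.6, 28.8 and 46.0 CPM in ITD, against 59.6, 87.1 and 55.3 CPM in WT. The 9 cDC1 genes summed to 1041 to 1101 CPM in ITD, against 1396 to 2246 CPM in WT. The part of cDC1 in the Cd207 result was not tested.

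**Figure D4:**
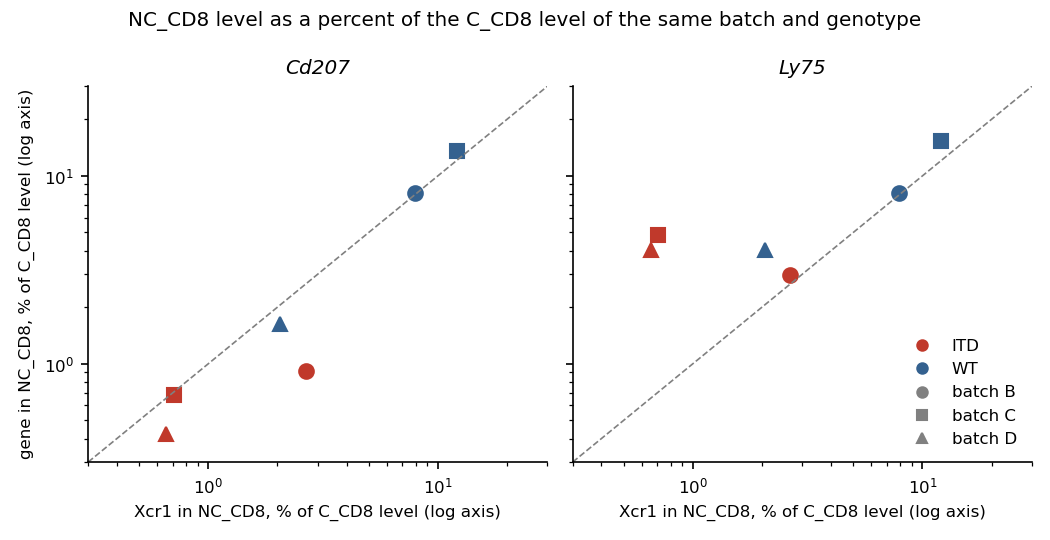
Level of Cd207 (left) and Ly75 (right) in NC_CD8 cells against that of the cDC1 gene Xcr1, each as a percentage of the C_CD8 level of the same genotype and batch, on log axes. Each point is a batch (marker shape) of ITD or WT (colour), and the dashed line marks equal percentages. Cd207 lies at 0.423% to 0.917% in ITD and at 1.63% to 13.6% in WT, and Xcr1 at 0.656% to 2.66% in ITD and at 2.06% to 12.1% in WT.

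Ly75 was highest in C_CD8 cells and next in CD11b+ cells. C_CD8 cells had 189, 235 and 305 CPM in ITD, against 164, 191 and 235 CPM in WT. Esamhi cells had 42.7 and 90.0 CPM in ITD, against 29.2 and 54.5 CPM in WT. Esamlo cells had 30.4 and 49.8 CPM in ITD, against 28.0 CPM in both WT libraries. In these 3 subsets the ITD library was the higher of all 7 pairs. NC_CD8 cells had 5.61, 11.3 and 12.3 CPM in ITD, against 13.4, 29.4 and 9.52 CPM in WT. PDC had 3.78 and 1.55 CPM in ITD, against 2.13 and 2.11 CPM in WT. In these 2 subsets the pairs went both ways.

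In WT mice Ly75 was 11.2-fold lower in NC_CD8 than in C_CD8 cells (log2 -3.49 ± 0.44 SE, edgeR adjusted p = 1.42e-05), and without the WT NC_CD8 library of batch C the log2 difference was -4.10. The within-batch difference of NC_CD8 minus C_CD8 ran from -5.05 to -4.36 in ITD and from -4.61 to -2.69 in WT. Esamhi cells were below C_CD8 cells (-2.23 ± 0.49, edgeR adjusted p = 0.00296), a call lost without the WT Esamhi library of batch C (-1.81, adjusted p = 0.0738). Esamhi against Esamlo cells (0.58 ± 0.50, edgeR adjusted p = 0.799) and Esamlo against NC_CD8 cells (0.68 ± 0.45, edgeR adjusted p = 0.509) did not differ beyond their spread. NC_CD8 cells were 8.22-fold above PDC (3.04 ± 0.55, edgeR adjusted p = 0.000401), with a log2 difference of 2.43, still called, without the WT NC_CD8 library of batch C. Esamhi cells were called above NC_CD8 cells only without the WT NC_CD8 library of batch C (1.86, adjusted p = 0.0200, against 1.26 ± 0.45 and 0.120 with it).

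Ly75 had no called genotype difference. Of the 12 pairs, 9 were higher and 3 lower in ITD, with a median log2 difference of 0.33. The average over subsets was 0.20 ± 0.22 (edgeR adjusted p = 0.900). In NC_CD8 cells the difference was -0.84 ± 0.42 (edgeR adjusted p = 0.703, and 0.142 with the pair block). As a percentage of the C_CD8 level, Ly75 in NC_CD8 cells was at 2.97%, 4.82% and 4.02% in ITD. In WT it was at 8.14%, 15.4% and 4.05%.

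Mrc1 varied widely within most subsets and between batches. Esamlo cells had 28.4 and 22.2 CPM in ITD, against 24.04 and 10.3 CPM in WT. NC_CD8 cells of batches B, C and D had 1.54, 12.7 and 6.07 CPM in ITD, against 0.0481 (1 read), 40.5 and 14.4 CPM in WT. Esamhi cells had 13.3 and 2.16 CPM in ITD, against 21.0 and 1.33 CPM in WT. The 2 libraries of a genotype differed more than the genotypes did in Esamhi cells. C_CD8 cells had 0.763, 5.70 and 10.5 CPM in ITD, against 0.884, 7.66 and 10.1 CPM in WT. PDC had 0 and 2 reads in ITD and 0 and 7 reads in WT. ITD was higher in 5 pairs and lower in 6, and the PDC pair of batch A had no reads on either side.

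The complement gene C1qa and the iron exporter Slc40a1, both made by splenic red pulp macrophages, are among the 3 genes most like Mrc1 over these libraries and are shown for that reason. Batch A held only PDC and batch B no CD11b+ cells, so the batches also differ in subset. In the 2 libraries of batch A, Mrc1 and C1qa were at 0. In the 6 libraries of batch B, Mrc1 was at 0.0481 to 1.54 CPM and C1qa at 0 to 0.432 CPM. In the 8 libraries of batch C, Mrc1 was at 5.70 to 40.5 CPM and C1qa at 8.68 to 78.1 CPM, and in the 8 of batch D, Mrc1 was at 1.33 to 22.2 CPM and C1qa at 5.77 to 20.0 CPM. The summed level of all 14 macrophage genes was 27.4 to 31.1 CPM in batch A with 10 of 14 genes detected, 23.0 to 155 CPM in batch B with 7 to 11, 196 to 1052 CPM in batch C with 12 to 14, and 161 to 446 CPM in batch D with 13 or 14. Slc40a1 was at 0.0444 to 0.554 CPM in batch A, 0 to 1.82 CPM in batch B, 28.1 to 160.8 CPM in batch C and 2.53 to 46.4 CPM in batch D. The library with the most Mrc1, WT NC_CD8 of batch C, was also that with the highest sum. Other macrophage genes did not follow Mrc1 in each library. In the WT Esamhi library of batch D, Adgre1 alone gave 316.6 CPM of the sum of 438.9 CPM, and Mrc1 was at 1.33 CPM. Vcam1 and Spic were at 65.6 and 18.0 CPM in the WT C_CD8 library of batch B, where Mrc1 was at 0.884 CPM. The part of macrophages in the Mrc1 levels was not tested.

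**Figure D5:**
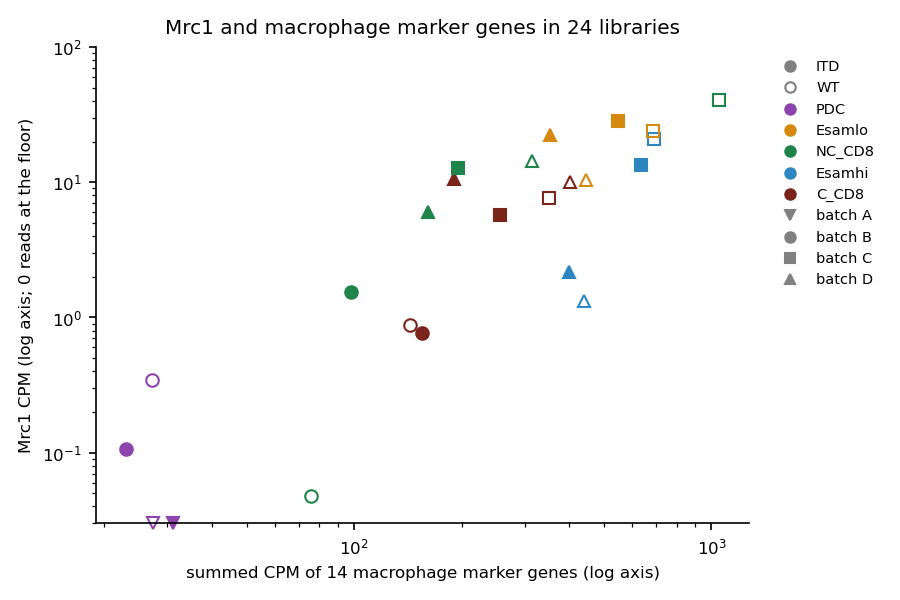
Mrc1 level of each of the 24 libraries against the summed level of 14 macrophage genes, both in CPM on log axes, with filled markers for ITD, open markers for WT, colours for subsets and marker shapes for batches. Libraries of batches A and B, which held no CD11b+ cells, lie at the low end of both axes. Their Mrc1 was at most 1.54 CPM, drawn at the axis floor where there were 0 reads. Libraries of batches C and D lie at higher sums.

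The subset calls of Mrc1 were lost with a block on the batch and without single libraries. In the fit with no block, NC_CD8 cells of WT mice were above PDC (log2 6.73 ± 2.17 SE, edgeR adjusted p = 0.0267), and so were Esamlo cells (6.64 ± 2.21, edgeR adjusted p = 0.0284) and Esamhi cells (6.02 ± 2.19, edgeR adjusted p = 0.0426). In batch B, the only one with both subsets, NC_CD8 minus PDC was 2.91 in ITD and -1.50 in WT. With the batch block, the edgeR adjusted p became 0.434, 0.530 and 0.795, although the CD11b+ subsets and PDC share no batch. Single libraries moved these values by more than 1.5-fold. The NC_CD8 call was lost without the WT PDC library of batch A (5.69, adjusted p = 0.160) or the WT NC_CD8 library of batch C (5.37, adjusted p = 0.0779), and without the WT NC_CD8 library of batch B the difference was 7.32 (adjusted p = 0.00688). The Esamlo call was lost without the WT PDC library of batch A (5.59, adjusted p = 0.159) or the WT Esamlo library of batch C (5.90, adjusted p = 0.0770). The Esamhi call was lost without the WT PDC library of batch A (4.98, adjusted p = 0.200) or the WT Esamhi library of batch C (2.95, adjusted p = 0.433), and without that of batch D the difference was 6.93 (adjusted p = 0.0350). All 3 calls were also lost without the WT PDC library of batch B (adjusted p = 0.0925, 0.0838 and 0.106), which leaves PDC at 0 Mrc1 reads, so that the fitted sizes there (11.3, 11.2 and 10.6) are no bound. C_CD8 cells were called above PDC only without the WT C_CD8 library of batch B (5.64, adjusted p = 0.0477). Among the other subsets no difference of Mrc1 was called, and by genotype the average was -0.61 ± 0.95 (edgeR adjusted p = 0.946).

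With no block, edgeR called none of the 5 lectins between ITD and WT in any subset. In PDC 0.0608% of all genes were called, in C_CD8 cells 0.0166%, in NC_CD8 cells 0.31%, in Esamhi cells 0% and in Esamlo cells 0.00553%. At an unadjusted p under 0.05 there were 0 in PDC (2.18% of all genes), 1 in C_CD8 cells (Mgl2, 4.35% of all genes), 3 in NC_CD8 cells (Clec10a, Mgl2 and Cd207, 7.36% of all genes), 0 in Esamhi cells (1.67%) and 0 in Esamlo cells (3.55%). DESeq2 called 2 in NC_CD8 cells (Mgl2 and Cd207, 1.31% of all genes). It called 0 in PDC (0.0981%), 0 in C_CD8 cells (0.582%), 0 in Esamhi cells (0.00727%) and 0 in Esamlo cells (0.00727%). Averaged over subsets, edgeR called 0 of the 5 (0.359% of all genes), with 2 at an unadjusted p under 0.05 (8.64%), and DESeq2 called 2 (1.7%). For an effect that differs among subsets, edgeR called 0 of the 5 (0% of all genes), with 1 at an unadjusted p under 0.05 (2.27%), and DESeq2 called 0 (0.262%). With the pair block edgeR called 3 in NC_CD8 cells (4.79% of all genes), 2 on average (6.83%) and 1 for a differing effect (0.304%). It called none in the other 4 subsets, for which the share of all genes is not given here.

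Of 7 other lectin-type receptor genes (Mrc2, Pla2r1, Asgr1, Asgr2, Clec4f, Colec12 and Cd302), 4 passed the filter. Cd302, the small receptor encoded beside Ly75, reached group means of 28.2 CPM in ITD and 21.2 CPM in WT Esamhi cells, and of 31.7 CPM in ITD and 36.7 CPM in WT Esamlo cells. Cd302 was higher in WT Esamlo than in WT NC_CD8 cells (log2 1.73 ± 0.32 SE, edgeR adjusted p = 0.00369) and higher in WT NC_CD8 than in WT C_CD8 cells (0.85 ± 0.30, edgeR adjusted p = 0.0440). Asgr2, the neighbour of Mgl2, stayed at or under a group mean of 2.15 CPM. None of the 4 was called between ITD and WT on average, with or without the pair block.

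Genes that make or extend the mucin-type sugars bound by MGL receptors went both ways between WT NC_CD8 and C_CD8 cells, with 4 higher and 3 lower of 16 tested (median log2 0.29, against -0.00461 over all genes tested), in a comparison that called 25% of all genes. Galnt6, which adds the first N-acetylgalactosamine, was higher in NC_CD8 cells (4.16 ± 0.66, edgeR adjusted p = 0.000135). Galnt7 of the same family was lower (-2.17 ± 0.17). St3gal1, which caps the chain with sialic acid, was higher (1.10 ± 0.18), and Galnt10 was lower (-1.18 ± 0.22). Between WT Esamhi and Esamlo cells 1 of the 16 was called, Galnt12, which was higher in Esamhi cells (1.39 ± 0.19, edgeR adjusted p = 0.00198). Of 18 genes of the clathrin coat and endosome sorting, 3 were higher and 7 lower in WT NC_CD8 than in WT C_CD8 cells (median -0.19), beside the same 25% of all genes. The endosome genes Rab11a (-0.999 ± 0.22), Rab7 (-0.65 ± 0.15) and Eea1 (-0.73 ± 0.20) were lower, and the adaptor subunit Ap2a2 was higher (0.59 ± 0.11).

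Skin Langerhans cells need TGF-beta signals, Runx3 and Id2. Of 10 genes of that group, 3 were higher and 2 lower in WT NC_CD8 than in WT C_CD8 cells (median log2 0.38, 25% of all genes called). The inhibitor Smad7 (2.21 ± 0.17) and the ligand Tgfb1 (0.62 ± 0.18) were higher, and the receptor Acvrl1 (-2.20 ± 0.20) and Id2 (-2.89 ± 0.69, edgeR adjusted p = 0.00468) were lower, as Cd207 was. Of 14 transcription factors of cDC1 and cDC2 fate, 5 were higher and 4 lower in that comparison (median 0.49, with the same 25% of all genes), led by Tcf4, Zeb2, Irf4 and Irf8.

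Between ITD and WT, edgeR with no block called no gene of these lists on average over the subsets. With the pair block, 5 of the 14 transcription factors rose, led by Relb (0.37, adjusted p = 0.000129) and Tcf4 (0.29, adjusted p = 0.00593), and of the 18 endosome genes Lamp1 (0.31, adjusted p = 0.00337) and Dnm2 (0.16, adjusted p = 0.0252) rose, where 6.83% of all genes were called. In NC_CD8 cells with the pair block, 3 of the 14 transcription factors rose and 2 fell, where 4.79% of all genes were called. Bcl6 (0.40, adjusted p = 0.00821), Rbpj (0.45, adjusted p = 0.00920) and Tcf4 (0.38, adjusted p = 0.0438) rose. Irf8, a factor required by cDC1, fell by 1.59 on the log2 scale (edgeR adjusted p = 0.00861) and Id2 by 1.25 (edgeR adjusted p = 0.0244). With no block none of the 5 was called (edgeR adjusted p = 0.271 for Irf8 and 0.756 for Id2).

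Across the 24 libraries, which share batches and subsets, 4 of the 5 genes formed an opposed pattern. Clec10a and Mgl2 had a Pearson r of 0.98 in log2 CPM and share sequence as given above, whose part in this value was not tested. Cd207 and Ly75 had an r of 0.81. Clec10a had an r of -0.80 with Cd207 and of -0.89 with Ly75. Mrc1 belonged to neither side, with an r of -0.18 to 0.47 with the other genes. These values describe the 24 libraries and carry no test.

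Among 11070 genes with a mean of at least 10 CPM in a group, the 3 most like Clec10a were Mgl2 (r = 0.979), the lectin gene Cd209c (0.975) and Rasgrp2, a Ras-family exchange factor (0.957). Those most like Mgl2 were Cd209c (0.982), Clec10a (0.979) and Cd209a (0.944). For Cd207 they were 2310031A07Rik (0.979), the translation factor Eef1b2 (0.966) and Atpif1 (0.957), and for Ly75 C9orf72 (0.975), Arpin (0.967) and Mospd2 (0.967). For Mrc1 they were C1qa (0.942), Slc40a1 (0.918) and C1qb (0.914). Likeness was measured over the 24 libraries and has no test.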

How the data were processed

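Gene expression was measured by RNA sequencing of sorted splenic dendritic cells in 24 libraries. Per the labels' protocols, PicoPure columns served for RNA (in some samples after Trizol) and a SMART-seq v4 kit for low input gave the cDNA. The submitters' processing notes list Bowtie2, bcl2fastq 1.8.4 and DESeq2 1.8.2 and the genome build mm10. The sources used here do not name the read counter, its annotation or its strand setting. Every test used the raw counts per Ensembl gene that the authors deposited. The normalized signal that the authors deposited beside them equals the counts divided by a size factor per library (0.634 to 1.3) and served here only as another scaling of levels. Symbols, positions and exon lengths came from the GENCODE annotation of GRCm38, which named 37693 of 39017 genes, and the 1324 without a symbol held 0.561% of counts.

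Counts were filtered with filterByExpr (minimum count 10) and scaled with TMM. A single edgeR 4.0.16 quasi-likelihood model with 10 group means was fitted to 24 libraries in R 4.3.3, with 14 residual degrees of freedom and a biological coefficient of variation of 0.317, and p-values were adjusted by the Benjamini-Hochberg method. It was also run on simulated counts without batch or pair effects, with changes set in C_CD8 and Esamhi cells only. The outcome is not given here. Log2 CPM in pairs, within-batch differences and correlations used a prior count of 2. SD is over libraries and SE is that of the log2 difference.

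The ITD and WT libraries of a subset and batch were treated as pairs, from the batch letters in the labels. After group means were subtracted, both libraries of a pair deviated together across genes in 12 of 12 pairs (r from 0.134 to 0.646). In subsets with 2 libraries per genotype, both pairs have the same r by construction, so these are not 12 separate values. The pair block left 7 residual degrees of freedom, and the batch block of the subset comparisons left 11. Their biological coefficients of variation were 0.141 and 0.174. Between replicates of a group, the chi-square per degree of freedom was 13.3 to 86.3, so no libraries were merged. Alternatives were DESeq2 1.42.0 size factors, the DESeq2 test, no filter on low counts, the block, a fit of only the groups compared, and each library left out in turn.

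The 5 genes and the gene lists were chosen with earlier results of these data known. Named genes were the 5 lectins, the 3 genes most like each by Pearson r, and up to 4 genes of a list with the smallest adjusted p in a comparison described. Cd302, Asgr2, Gm13571, Xcr1, Clec9a, C1qa, Slc40a1, Adgre1, Vcam1 and Spic were also named for their place beside a result, of which Clec9a, Adgre1, Vcam1 and Spic were chosen after their values were seen. Matched promoters came from RefSeq for 4 of the 5 genes. A list of Langerhans cell markers is not reported here.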

Additional observations from a re-analysis of the deposited data

Results flagged for a closer look

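The genotype effect on Cd207 differed among the 5 subsets in the fit with the pair block (edgeR adjusted p = 0.0145 for the interaction). In NC_CD8 cells the ITD library was lower in all 3 pairs (log2 -3.21, -4.36 and -1.99). In C_CD8 cells it was also lower in all 3, by small margins (-0.090, -0.13 and -0.21). The Esamhi pairs differed little (0.19 and 0.084, on 22 to 51 reads per library). Pairs went both ways in PDC (2.21 and -1.46) and in Esamlo cells (-0.32 and 0.67). With no block the edgeR adjusted p of the same test was 1, and DESeq2 did not call it.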

How the results depend on the processing

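Counts of called lectins moved with the fit. With the replicate block, 3 were called for ITD against WT in NC_CD8 cells, 2 on average over subsets, 1 for an effect that differs among subsets and 2 for Esamlo against NC_CD8 cells, where the fit with no block called 0, 0, 0 and 1. DESeq2's test called 2 in NC_CD8 cells and 2 on average. With no filter on low counts, edgeR called 1 in NC_CD8 cells and 1 on average. Fitted on only the 2 groups compared, 0 were called for Esamhi against Esamlo cells, 0 for Esamlo against NC_CD8 cells and 1 for Esamhi against NC_CD8 cells. In such fits Mrc1 was no longer called in NC_CD8 and Esamhi cells against PDC (adjusted p = 0.0992 and 0.0586), nor Clec10a in Esamlo cells against PDC (0.0767), while Mrc1 in C_CD8 cells (0.0429) and Cd207 in Esamhi cells (0.0457) against PDC became called. DESeq2 size factors moved no call. For the fits with no filter and of 2 groups, the share of all genes called is not given here. Apart from the values given in the report, the block changed no other call of the genotype comparisons. With it, Mrc1 in WT Esamhi against C_CD8 cells was reversed, at -0.28 (edgeR adjusted p = 0.849). The causes of these changes were not tested, and fits of 2 groups also hold fewer samples.

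With each library left out in turn, the counts ran from 0 to 1 on average over subsets and from 0 to 1 in NC_CD8 cells for ITD against WT. They ran from 0 to 2 for Esamhi against Esamlo, Esamlo against NC_CD8 and Esamhi against NC_CD8 cells, and from 1 to 2 for Esamlo cells against PDC. A group left with 1 library was assumed to vary like the other groups. The share of all genes called in these fits is not given here, so the counts show only how calls moved. Some uncalled differences also changed direction. For ITD against WT in PDC the log2 range was -2.81 to 2.64 for Cd207, -0.45 to 0.82 for Ly75 and -4.63 to 3.06 for Mrc1. In C_CD8 cells it was -0.59 to 0.32 for Cd207 and -0.91 to 0.41 for Mrc1. In Esamhi cells it was -0.065 to 0.70 for Clec10a, -0.41 to 0.63 for Cd207 and -2.37 to 2.52 for Mrc1, and in Esamlo cells -0.29 to 0.66 for Cd207. The average over subsets ran from -1.23 to 0.31 for Mrc1. Between WT subsets, the range was -0.92 to 0.049 for Mgl2 in Esamlo cells against PDC, and for Mrc1 it was -2.18 to 1.76 in Esamhi against C_CD8, -0.83 to 1.26 in Esamlo against NC_CD8, -3.76 to 0.65 in Esamhi against NC_CD8 and -3.67 to 0.29 in Esamhi against Esamlo cells.

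Groups hold 2 or 3 libraries, and Cd207 in ITD NC_CD8 cells, Mgl2 in C_CD8 cells and Mrc1 in PDC rest on few reads. With the authors' normalization 2 of 50 group levels moved by more than 1 SD. With Spearman's rho in place of Pearson's r, the 3 most alike genes changed for all 5 lectins. Clec10a, Mgl2 and Cd207 lost only Rasgrp2, Cd209a and Atpif1, while Ly75 kept only C9orf72 and Mrc1 only C1qa.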
